A study of Mus musculus with 4 samples.

Results

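Cohesin binding was examined around 8 genes of the Nodal pathway and of primed pluripotency: Nodal, Tdgf1, Lefty1, Lefty2, Fgf4, Fgf5, Otx2 and Utf1. The genes were taken as a list, and every deposited RAD21 site whose span came within 100 kb of one of their gene bodies was taken with it. These are 8 of 21327 protein-coding genes on the autosomes. Near them lay 30 of the 15085 autosomal RAD21 sites of embryonic stem cells (ESCs) and 14 of the 10781 autosomal sites of embryoid bodies (EBs). Sites of both lists that overlapped were joined, which left 34 sites of 18504.

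Nodal is a secreted ligand of the TGF-beta family that signals through activin receptors and SMAD proteins. It needs the co-receptor Cripto, the product of Tdgf1, and induces its own antagonists Lefty1 and Lefty2, so that the pathway limits itself. In mouse development Nodal signalling and FGF signalling act in the epiblast, where cells pass from a naive to a primed pluripotent state marked by Fgf5 and Otx2. RAD21 is the subunit that closes the cohesin ring. Cohesin pairs sister chromatids and also extrudes chromatin loops, and it is often halted where the insulator protein CTCF is bound.

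RAD21 was mapped by chromatin immunoprecipitation and sequencing (ChIP-seq) in mouse R1/E ESCs at day 0 and in EBs grown from the same cells to day 12. Each cell type gave 1 library precipitated against the GFP tag and 1 control library labelled as goat IgG, whose description also speaks of input DNA. Both cell types carried the same construct, a Rad21 gene on a bacterial artificial chromosome with a GFP-containing tag at its end, in clones that were selected for resistance and sorted for GFP. The tagged protein was present beside the cells' own RAD21. ESCs were kept without feeder cells and with LIF, a cytokine that holds ESCs undifferentiated, and EBs were made in hanging drops and hold several cell types. The libraries held between 6929293 and 13714772 autosomal reads. There was 1 library per group and no replicate, so that no test between conditions could be made, and every interval below is a 95% counting interval. In EBs, binding in fewer cells and weaker binding per cell cannot be told apart. Expression was not measured in these files, so the cell types could not be checked against their marker genes.

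The sites near the 8 genes differ in whether they hold a CTCF match and in how their reads differed between the cell types. Sequences at a choice of the 34 sites are therefore shown here, and not at every site called lower or higher. The sequences were read from the mm9 genome, 5′ to 3′, and sites are named by the nearest of the 8 genes and numbered along the chromosome. Capitals mark the best 20-base match to the CTCF matrix, except in Otx2-1, where no match was found and capitals mark a Sox pattern. Each site carries a score from the peak caller, a negative log10 p-value multiplied by 10. Lefty2-2 was the site with the highest score and the best CTCF match of the 34, and was listed in ESCs but not in EBs. Lefty1-1 was the ESC site nearest to the Lefty1 start, with a weaker match. Lefty1-3 and Tdgf1-2 were listed in both cell types. Nodal-2 and Fgf5-2 were listed in EBs but not in ESCs. Nodal-4 and Fgf4-3 were ESC sites upstream of Nodal and Fgf4, and Otx2-1 was the single site near Otx2.
Lefty2-2: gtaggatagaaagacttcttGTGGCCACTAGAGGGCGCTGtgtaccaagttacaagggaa
Lefty1-1: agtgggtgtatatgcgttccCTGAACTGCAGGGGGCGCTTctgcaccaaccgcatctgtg
Lefty1-3: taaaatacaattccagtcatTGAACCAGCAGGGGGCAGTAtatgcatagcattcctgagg
Tdgf1-2: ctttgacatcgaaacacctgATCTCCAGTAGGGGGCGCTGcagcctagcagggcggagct
Nodal-2: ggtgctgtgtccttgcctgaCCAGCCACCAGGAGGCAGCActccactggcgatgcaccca
Nodal-4: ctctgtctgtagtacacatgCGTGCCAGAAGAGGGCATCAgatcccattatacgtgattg
Fgf5-2: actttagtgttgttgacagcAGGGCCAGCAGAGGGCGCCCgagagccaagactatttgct
Fgf4-3: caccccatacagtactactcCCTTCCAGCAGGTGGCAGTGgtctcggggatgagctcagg
Otx2-1: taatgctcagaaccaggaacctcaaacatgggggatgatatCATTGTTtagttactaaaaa
Their positions were chr1:182804286-182804345 on the plus strand for Lefty2-2, chr1:182850012-182850071 (plus) for Lefty1-1, chr1:182922417-182922476 (plus) for Lefty1-3, chr9:110825429-110825488 (plus) for Tdgf1-2, chr10:60804400-60804459 (plus) for Nodal-2, chr10:60865408-60865467 (minus) for Nodal-4, chr5:98777828-98777887 (plus) for Fgf5-2, chr7:152032239-152032298 (plus) for Fgf4-3 and chr14:49240512-49240572 (plus) for Otx2-1. Lefty2-2, Lefty1-1, Fgf4-3, Nodal-4 and Otx2-1 lay between genes, as did Tdgf1-2. Lefty1-3 lay in an intron of Ephx1, Nodal-2 in an intron of X99384, and Fgf5-2 in an intron of 1700007G11Rik.

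The first question was how many RAD21 sites lay near each gene in each cell type. The most ESC sites lay near Fgf4, with 9 in ESCs and 1 in EBs. Lefty1 and Lefty2 lie next to each other on chromosome 1 and had 7 ESC sites and 3 EB sites each. They shared 6 sites, so that the locus held 8 in all. Utf1 had 5 ESC and 2 EB sites, Tdgf1 had 4 and 2, and Nodal had 3 and 4. Otx2 had 1 ESC site and no EB site, and Fgf5 had no ESC site and 2 EB sites. For comparison, 82.3% of all protein-coding genes had an ESC site within 100 kb and 73.6% had an EB site, with a median of 2 ESC sites and 1 EB site. At least as many ESC sites as near Fgf4 were found near 0.689% of genes, and at least as many as near Lefty1 or Lefty2 near 3.08%. Of the EB sites, the 4 near Nodal were reached by 9.21% of genes.

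**Figure D1:**
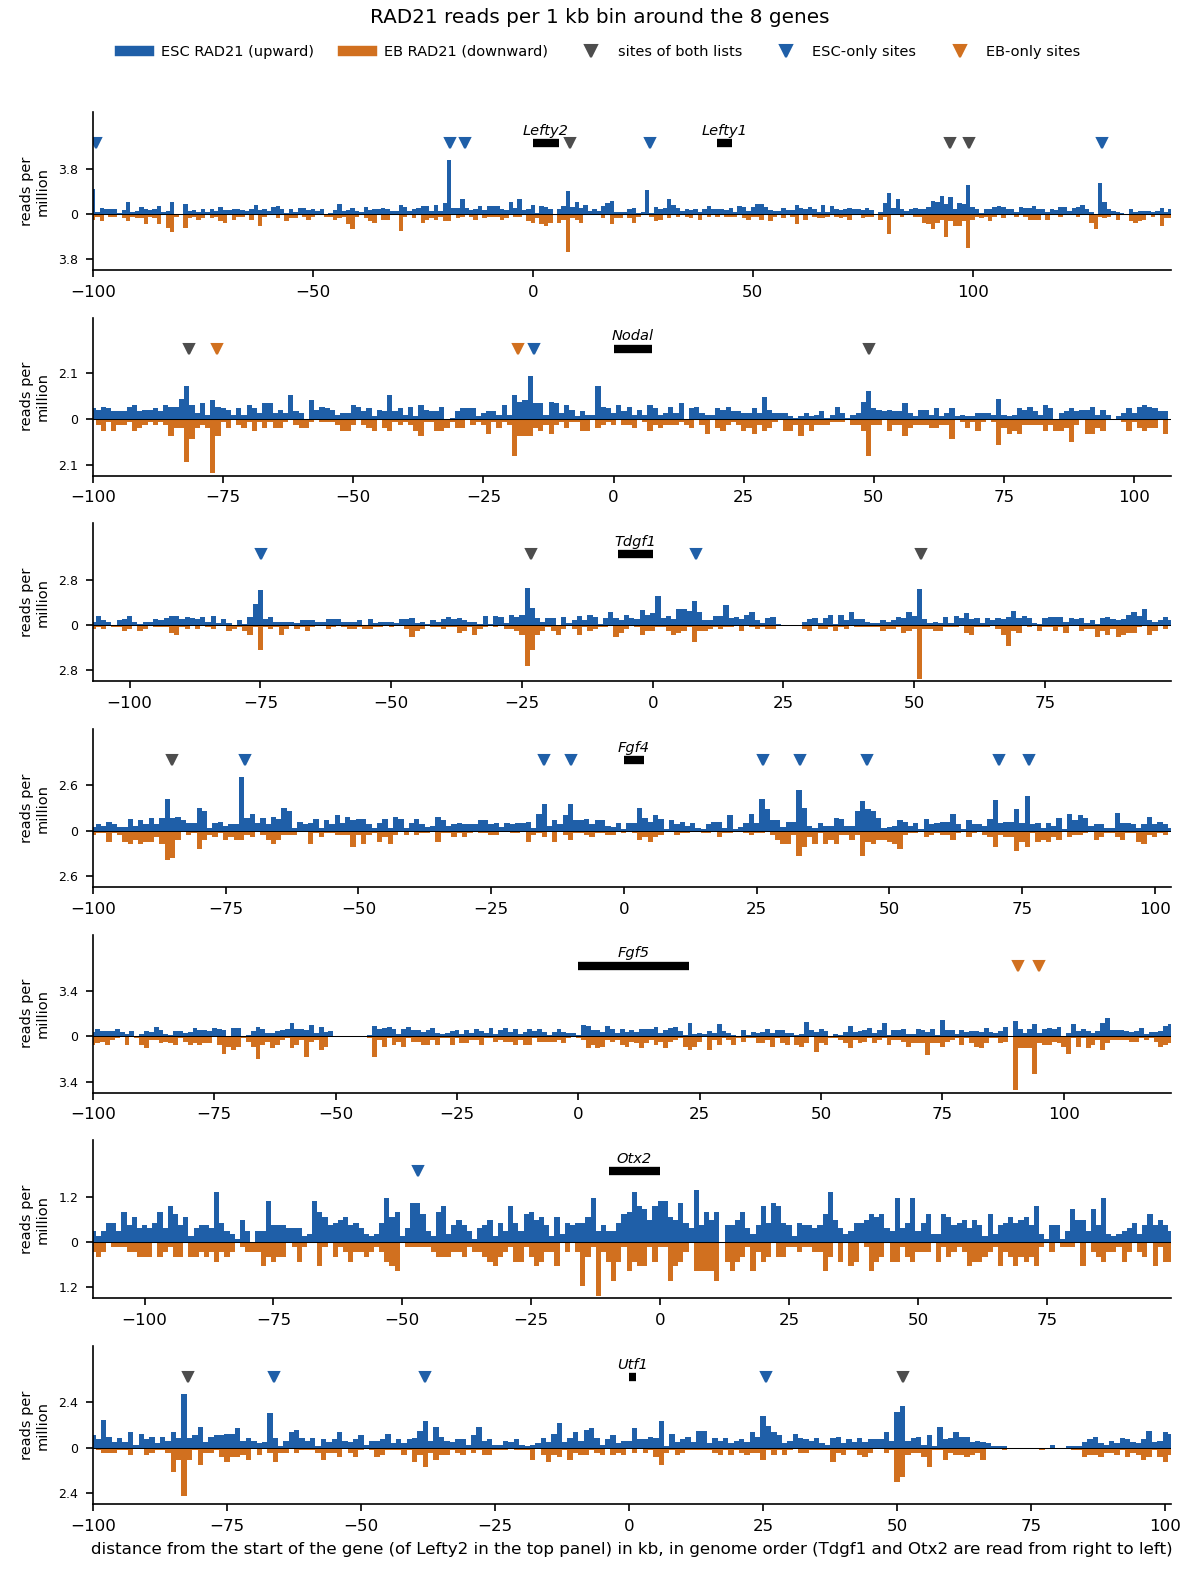
RAD21 RPM (reads scaled to the autosomal total of each library) per 1 kb bin, upward for ESCs and downward for EBs, by distance in kb from the start of each gene, in genome order. Triangles mark the 34 sites by the list that holds them and black bars the genes. The tallest ESC bin of the Lefty locus stands upstream of Lefty2, at Lefty2-2, with no EB counterpart, and downstream of Fgf5 the EB bins at 2 sites are the longest of that panel. Tdgf1 and Otx2 are read from right to left.

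The 34 sites comprised 10 of both lists, 20 of the ESC list alone and 4 of the EB list alone. Of the ESC sites near the 8 genes 10 of 30 (33.3%, 17.3 to 52.8) overlapped an EB site, against 48.6% of all autosomal ESC sites. Of the EB sites 10 of 14 (71.4%, 41.9 to 91.6) overlapped an ESC site, against 68.3% of all. Both intervals included the value over all sites, so that no difference in sharing from the rest of the genome was detectable with so few sites. Most sites lay away from genes: 21 were between genes, 10 in introns, 2 in exons and 1 within 1 kb of a gene start. No site lay at the start of any of the 8 genes. The nearest were Tdgf1-3 at 8247 bp, Lefty2-4 at 8252 bp and Fgf4-4 at 9831 bp from the start, and the farthest nearest site was Fgf5-1 at 90638 bp.

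Reads were then counted within 250 bp of each summit, the position of the highest pile-up, to compare the cell types beyond presence in a list. A site was called lower or higher in EBs where its scaled EB to ESC ratio of RAD21 reads was at least 2-fold and its interval excluded 1. By this rule 12 of 34 sites were lower in EBs, against 18.2% of all autosomal sites, and 3 were higher, against 17.4%. By size alone 15 sites were at least 2-fold lower (26.3% of all sites) and 3 at least 2-fold higher (19.6%). All 12 were in the ESC list alone and all 3 in the EB list alone, groups that are defined by a difference between the lists, so these ratios are a description. Among the 20 ESC-only sites 12 were lower by the rule and 15 by size alone, against 42.1% and 61.4% of all ESC-only sites, and none was higher, against 0.0258% and 0.0387%. Among the 4 EB-only sites 3 were higher both by the rule and by size alone, against 64.2% and 75.4%. None of the 10 sites of both lists was past 2-fold, where 1.45% of all such sites were lower and 14.2% higher by that size.

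Summed over the sites, RAD21 reads had an EB to ESC ratio of 0.711 (0.619 to 0.814) at the 34 sites, from 738 ESC and 296 EB reads. At the 10 sites of both lists it was 1.18 (0.957 to 1.45). At the 20 sites listed in ESCs alone it was 0.263 (0.202 to 0.340), and at the 4 listed in EBs alone 3.01 (2.04 to 4.49). Over all autosomal sites the same sums gave 1.31 for sites of both lists, 0.436 for the ESC-only and 2.85 for the EB-only ones. The interval of the ESC-only sites, which covers counting error and not the spread between sites, lay below the genome-wide value for such sites. Without the 5 sites of the Lefty locus, a choice made after seeing the data, the other 15 gave 0.337 (0.251 to 0.447), which included that value. The IgG reads at the 34 sites gave an EB to ESC ratio of 0.889 (0.605 to 1.29), and 0.769 (0.445 to 1.29) at the ESC-only sites.

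**Figure D2:**
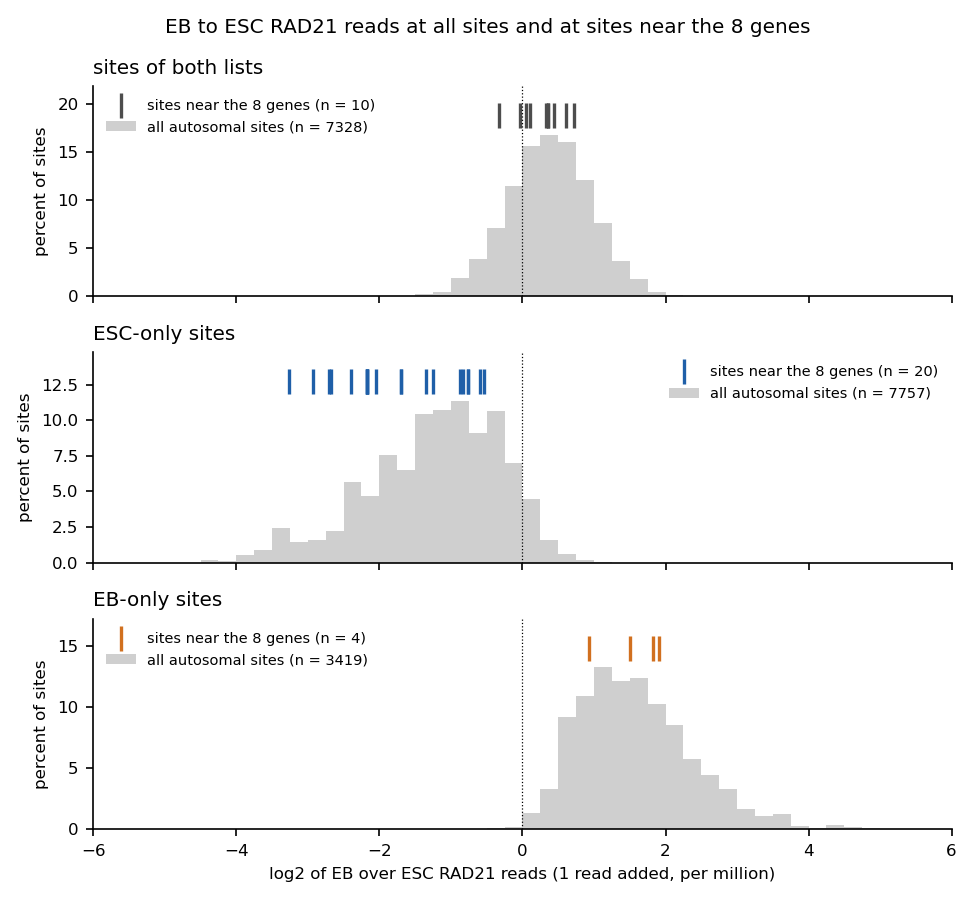
Distribution of log2 values of EB over ESC for RAD21 reads, with 1 read added to each count, for all autosomal sites (grey bars, percent of sites) and for the sites near the 8 genes (coloured ticks), by the list that holds the site. The lowest tick of the ESC-only sites is Fgf4-5, the site with no EB read, and the 4 EB-only ticks lie within the bulk of their group.

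Base composition moved with the libraries and bears on these ratios. In background windows away from all sites, scaled EB reads were 1.70 times the ESC reads for RAD21 in the 1 of 20 classes of windows with the lowest GC content and 0.601 in the class with the highest, and the IgG ratio went from 1.50 to 0.608. The 34 sites had a median GC content of 50.5%, between 34.5% and 56.3%, against 44.9% over all autosomal sites. Around 6 of the 8 genes the IgG reads of the whole region, gene body and 100 kb on either side, were also fewer in EBs than their depth would give, with scaled ratios of 0.647 at Utf1, 0.717 at Lefty2, 0.731 at Lefty1, 0.732 at Tdgf1, 0.738 at Fgf4 and 0.742 at Nodal. Otx2 had 0.932 and Fgf5 1.05. Scaled by background windows of like GC content, the summed value was 0.976 (0.850 to 1.12) at the 34 sites, 1.49 (1.21 to 1.83) at the sites of both lists and 0.388 (0.297 to 0.501) at the ESC-only sites. Over all autosomal sites the same scaling gave 1.26, 1.50 for both lists and 0.531 for ESC-only sites, and without the Lefty locus the ESC-only sites near the genes gave 0.484 (0.360 to 0.641). Of the 12 lower sites 8 were still lower by the rule, the exceptions being Lefty2-3, Utf1-2, Fgf4-3 and Fgf4-4. These were 6.03-, 3.90-, 3.90- and 2.49-fold lower with this scaling, and their upper limits passed 1. All 3 higher sites were still higher. With this scaling 8 of 34 sites were lower, against 12.7% of all sites, and 5 were higher, against 21.2%, and by size alone 14 were lower and 6 higher, against 21.3% and 24.0% of all sites. The part of base composition in the single differences was not tested.

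Nodal, the ligand of the pathway, had 5 sites, of which 2 were in both lists, 2 in EBs alone and 1 in ESCs alone. Its gene body is at chr10:60880720-60888086 on the plus strand. Nodal-2, at chr10:60804168-60804898 and -76363 bp from the start (negative distances are upstream), had 8 ESC and 18 EB RAD21 reads, with 5 and 2 IgG reads. The EB library was thus 3.99 times higher (1.65 to 10.6), the largest ratio of the 34 sites. ESC RAD21 reads there were 1.47 times the IgG level (0.42 to 5.71), an interval that included 1. Nodal-3, at chr10:60862093-60862557 and -18440 bp from the start, had 12 ESC and 13 EB reads with 1 IgG read in each cell type. Its ratio of 1.92 (0.807 to 4.60) was not called, and its ESC reads were above IgG although it was not in the ESC list. Beside it, Nodal-4 at chr10:60864998-60866042 was listed in ESCs alone, with 20 ESC and 4 EB reads and 1 and 0 IgG reads. Its ratio was 0.354 (0.0881 to 1.06). So neighbouring sites upstream of Nodal were listed in opposite cell types, while neither ratio had an interval that excluded 1. With GC scaling Nodal-3 was 2.92 times higher in EBs (1.23 to 6.99) and met the rule, and Nodal-4 (0.497, 0.124 to 1.48) did not. Nodal-1 at chr10:60798798-60799462, with 17 and 12 reads, and Nodal-5 at chr10:60929594-60930114, with 16 and 11 reads, had ratios of 1.25 and 1.22. Summed over the 5 sites the ratio was 1.41 (0.980 to 2.01), and 2.03 (1.41 to 2.91) with GC scaling, where all autosomal sites gave 1.26. These sums hold the 2 sites listed in EBs alone, so they are a description. The 2 sites of both lists gave 1.23 (0.692 to 2.17) without GC scaling.

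Tdgf1, which encodes the Nodal co-receptor Cripto, had 4 sites, none of them past 2-fold between the cell types before GC scaling. Its gene body is at chr9:110842114-110848662 on the minus strand. Tdgf1-4, at chr9:110899483-110900452 and -51295 bp from the start, had 27 ESC and 25 EB reads with 3 and 1 IgG reads, and had the highest EB score among the 34 sites, 173.13. Its ratio was 1.64 (0.913 to 2.94), and 2.19 (1.22 to 3.92) with GC scaling, where it met the rule for a higher site. Tdgf1-2, at chr9:110824964-110825895 downstream of the gene, had 28 and 15 reads and a ratio of 0.949 (0.471 to 1.84). Tdgf1-1, in an intron of Tmie at chr9:110773265-110774219, was listed in ESCs alone but still had 10 EB reads against 32 in ESCs. It was the single one of the 20 ESC-only sites where the EB RAD21 reads were above EB IgG by their interval (8.95, 1.27 to 389), against 16.5% of all ESC-only sites. Summed over those 20 sites, however, EB RAD21 reads were 2.81 times the IgG level (1.72 to 4.77), next to 3.04 over all ESC-only sites. Tdgf1-3, in an intron of Lrrc2 at chr9:110856508-110857191, had 15 and 5 reads and the lowest score of the 34 sites, 50.74. The sum over the 4 sites gave 0.955 (0.675 to 1.34), and 1.30 (0.919 to 1.82) with GC scaling.

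Lefty1 and Lefty2, which encode the secreted Nodal antagonists, had 8 sites around them, and the 5 listed in ESCs alone had hardly any EB reads. Lefty2 is at chr1:182823239-182829234 and Lefty1 at chr1:182865153-182868531, both on the plus strand. Lefty2-2, at chr1:182803886-182804852, -18818 bp from the Lefty2 start and -60732 bp from the Lefty1 start, had 57 ESC and 4 EB RAD21 reads and 2 IgG reads in each cell type. It was 8.04-fold lower in EBs (ratio 0.124, 0.0328 to 0.336), and 5.29-fold lower with GC scaling. Its score of 345.64 was reached by 1.96% of autosomal ESC sites. Lefty1-4, at chr1:182952250-182953051 downstream of both genes, had 33 ESC and 2 EB reads, with 0 and 3 IgG reads. Lefty1-1, between the genes at chr1:182849588-182850195 and 15166 bp upstream of Lefty1, had 26 ESC reads and 1 EB read, with 1 IgG read in each. At both of these the EB RAD21 reads were no more than the EB IgG reads after scaling. Lefty2-1, at chr1:182723360-182724266, had 23 and 2 reads, and Lefty2-3, at chr1:182807506-182808037, had 15 and 1, the latter with 6 ESC IgG reads and a ratio of ESC RAD21 to IgG of 2.30 (0.84 to 7.23), which included 1. Lefty2-1 lay 98973 bp from the Lefty2 body, just inside the limit, and also within 100 kb of Mixl1. Just outside, 100833 bp beyond Lefty1, an ESC site at chr1:182969364-182970208 that overlapped an EB site had 26 ESC and 13 EB reads.

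The 5 ESC-only sites of the Lefty locus together had 154 ESC and 10 EB RAD21 reads. Their ratio was 0.115 (0.0541 to 0.217), with 10 ESC and 9 EB IgG reads at the same positions. In ESCs RAD21 reads, for whose excess the sites were listed, were 14.2 times the IgG level (7.49 to 30.1). In EBs they were 0.995 times that level (0.363 to 2.77), so that no EB binding above the control was detectable there. Single sites had between 1 and 4 EB reads, where 95% of background windows of any GC content had no more than 4. The 5 sites had a GC content of 49.5% to 56.1%, and no such limit was taken from windows of like GC content. The other 3 sites of the locus were in both lists. Lefty2-4, at chr1:182831148-182832036, 8252 bp downstream of the Lefty2 start and 1914 bp beyond its end, had 21 ESC and 18 EB reads. Lefty1-2 at chr1:182917823-182918374 had 16 and 12, and Lefty1-3 at chr1:182922021-182922919 had 28 and 20, both within Ephx1, an epoxide hydrolase gene. These 3 had a summed ratio of 1.36 (0.923 to 2.00). The intervals of both kinds of site did not meet. The lists that define these kinds were called from the same reads, so this is a description.

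**Figure D3:**
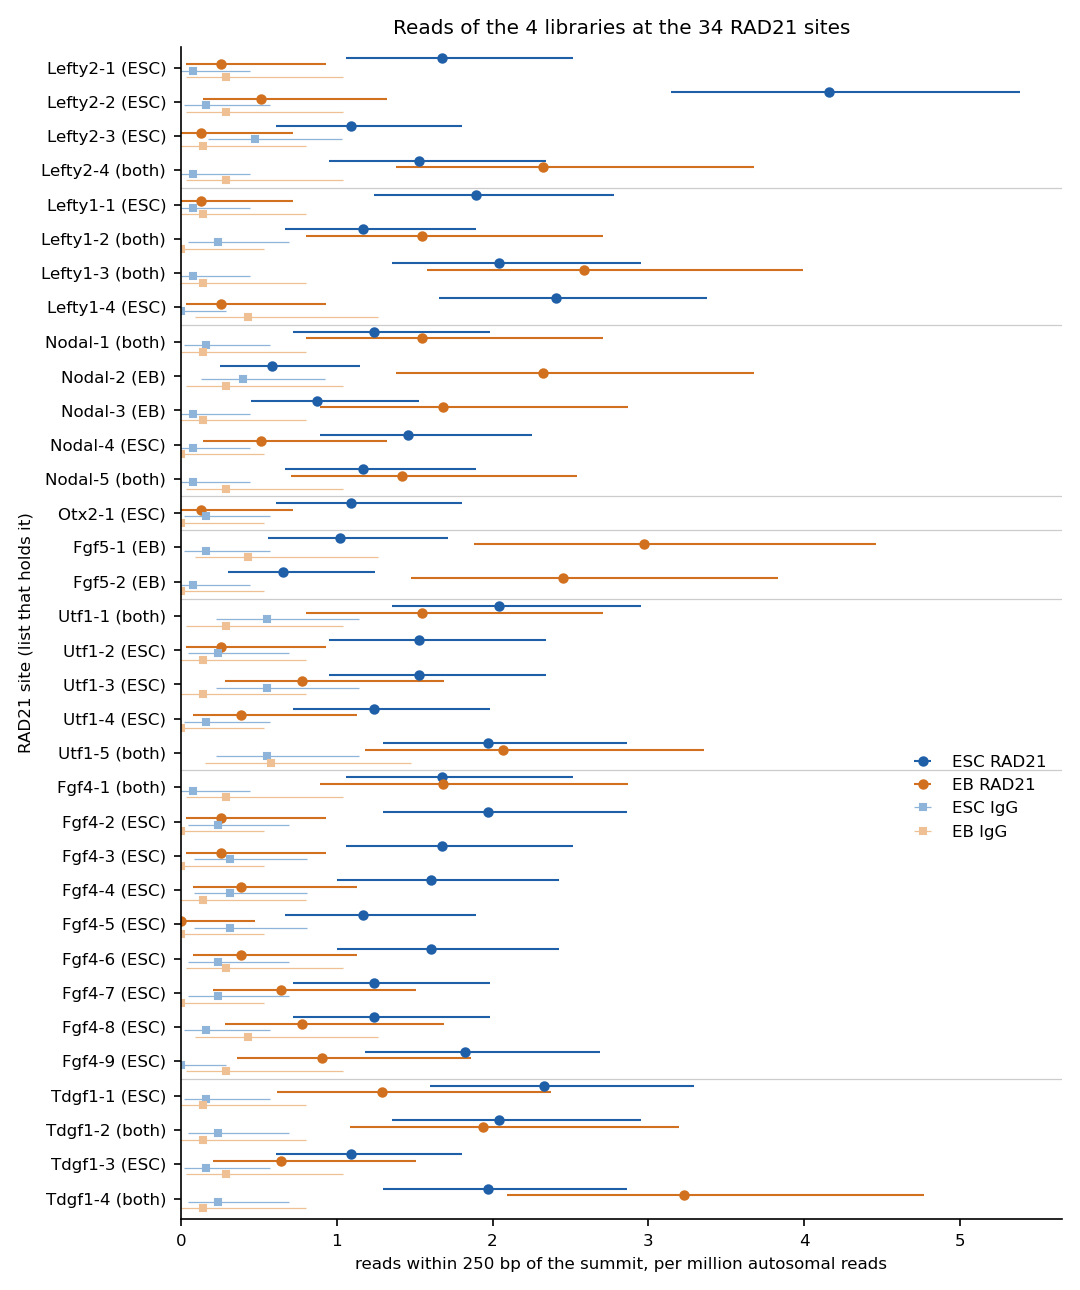
RPM of autosomal reads within 250 bp of the summit at each of the 34 sites, for the RAD21 libraries (circles) and the IgG libraries (squares), with 95% counting intervals. The list that holds each site stands in brackets, where ESC and EB mean that list alone. Lefty2-2 has the highest value in ESCs, 4.16 against 0.517 in EBs, and the EB value stands well above the ESC value at Nodal-2, Fgf5-1 and Fgf5-2.

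Fgf4, which encodes the FGF ligand that ESCs secrete and that drives them towards differentiation, had 9 sites, of which 8 were in the ESC list alone. Its gene body is at chr7:152047291-152051148 on the plus strand. The 8 sites together had 169 ESC and 28 EB RAD21 reads, a ratio of 0.294 (0.189 to 0.440), with 23 and 8 IgG reads and an IgG ratio of 0.633 (0.245 to 1.46). Fgf4-2, at chr7:151975290-151976457 and -71105 bp from the start, had 27 ESC and 2 EB reads and was 7.62-fold lower in EBs. Fgf4-3, at chr7:152031802-152032837 between Fgf3 and Fgf4, had 23 and 2. Fgf4-5, at chr7:152073265-152073857 between Fgf4 and Fgf15, had 16 ESC reads and no EB read, which is at least 3.01-fold lower when up to 3 EB reads are allowed for. Fgf4-4 at chr7:152036945-152037757 and Fgf4-6 at chr7:152080089-152080924 each had 22 and 3 reads. These 5 sites were lower by the rule, while Fgf4-7, Fgf4-8 and Fgf4-9 were not, with ratios of 0.521, 0.625 and 0.496. Fgf4-8 lay in an exon and Fgf4-9 within 1 kb of the start of Ccnd1, the cyclin D1 gene, 70636 and 76319 bp from the Fgf4 start. Fgf4-9 had 25 ESC and 7 EB reads with 0 and 2 IgG reads. Fgf4-1, at chr7:151961669-151962602, was the site of both lists, with 23 and 13 reads, 1.68 RPM of autosomal reads in each cell type. Summed over the 9 sites the ratio was 0.378 (0.263 to 0.532), and 0.560 (0.390 to 0.788) with GC scaling.

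Fgf5, a marker gene of the primed epiblast, showed the opposite pattern, with no ESC site and 2 EB sites. Both lay in introns of 1700007G11Rik, far downstream of the Fgf5 body at chr5:98683203-98706049. Fgf5-1, at chr5:98773297-98774216 and 90638 bp from the Fgf5 start, had 14 ESC and 23 EB reads with 2 and 3 IgG reads, a ratio of 2.91 (1.44 to 6.12). Fgf5-2, at chr5:98777690-98778374 and 94716 bp from the start, had 9 and 19 reads with 1 and 0 IgG reads, a ratio of 3.74 (1.61 to 9.39). Together they had 23 ESC and 42 EB reads, 3.24 times higher in EBs (1.90 to 5.64) and 2.86 times with GC scaling. ESC reads there were still above IgG, 7.04 times over both sites (2.13 to 36.7). Across the 4 EB-only sites ESC RAD21 was above IgG by its interval at 3, against 32.2% of all EB-only sites, Nodal-2 being the exception. Absence from the ESC list therefore did not mean that no ESC reads above the control were found.

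Otx2 and Utf1 encode nuclear factors of pluripotent cells, the former a homeobox protein that acts as cells leave the naive state. Otx2, at chr14:49277354-49287319 on the minus strand, had 1 site, Otx2-1 at chr14:49240026-49240810, 46777 bp downstream of its start. It had 15 ESC reads and 1 EB read, with 2 and 0 IgG reads, and was 8.47-fold lower in EBs (ratio 0.118, 0.00281 to 0.768). Its score of 59.12 was among the lower ones and its GC content was 39.1%, where the background EB to ESC ratio was 1.04. Utf1, at chr7:147129688-147131011, had 5 sites. Utf1-2, in an exon of Gpr123 at chr7:147063121-147063954, had 21 and 2 reads and was 5.93-fold lower in EBs. Utf1-4, at chr7:147154745-147155869, had 17 and 3, and Utf1-3, in an intron of Kndc1 at chr7:147091346-147092054, had 21 and 6, neither with an interval that excluded 1. Utf1-1 at chr7:147046974-147047827 and Utf1-5 at chr7:147180194-147181283 were in both lists, with 28 and 12 reads and with 27 and 16. Their ESC IgG reads, 7 at each, were the highest of the sites of both lists. Over the 5 Utf1 sites the ratio was 0.606 (0.410 to 0.879), and 0.819 (0.554 to 1.19) with GC scaling, where the interval included 1.

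The gene starts themselves were then read directly, within 1 kb on either side, since no site lay there. Scaled RAD21 reads were at least 2-fold above IgG at 3 of 8 starts in ESCs, against 20.6% of all protein-coding genes, and at 3 of 8 in EBs, against 33.2%. The interval lay above 1 at 1 start in each cell type, against 8.28% and 8.33% of all genes. In ESCs this was Otx2, with 28 RAD21 and 11 IgG reads (2.34, 1.13 to 5.21). In EBs it was Lefty2, with 11 and 2 reads (4.92, 1.07 to 45.7). Otx2 has other annotated starts, where this ESC ratio ranged from 1.84 (0.936 to 3.78) to 3.31 (1.18 to 11.4). Some of their intervals included 1 and others did not. Counts were low elsewhere: the ESC RAD21 reads were 12 at Lefty1, 15 at Lefty2, 11 at Nodal, 19 at Tdgf1, 7 at Fgf4, 4 at Fgf5 and 10 at Utf1. The EB RAD21 reads were 4, 11, 3, 6, 1, 1 and 3 at the same genes and 5 at Otx2. Between cell types, 4 of 8 starts were at least 2-fold lower in EBs, against 17.8% of all starts. None was at least 2-fold higher, against 13.5% of all starts. Of the lower starts Otx2 alone had an interval that excluded 1 (0.316, 0.0954 to 0.830), and its IgG ratio was 0.496 (0.0889 to 1.88). Of all 21327 starts 763 had an interval below 1 and 1212 an interval above 1. With GC scaling the Otx2 start gave 0.402 (0.121 to 1.06), an interval that included 1. Without it, the other annotated Otx2 starts ranged from 0.316 (0.0954 to 0.830) to 0.689 (0.243 to 1.73), so that the call depended on the start taken. Summed over the 8 starts the EB to ESC ratio was 0.568 (0.374 to 0.843) for RAD21 and 0.379 (0.202 to 0.667) for IgG. The control was thus lower in EBs at these starts as well, and the part of that in the RAD21 ratio was not tested. Over all gene starts the same ratios were 1.07 and 0.931.

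**Figure D4:**
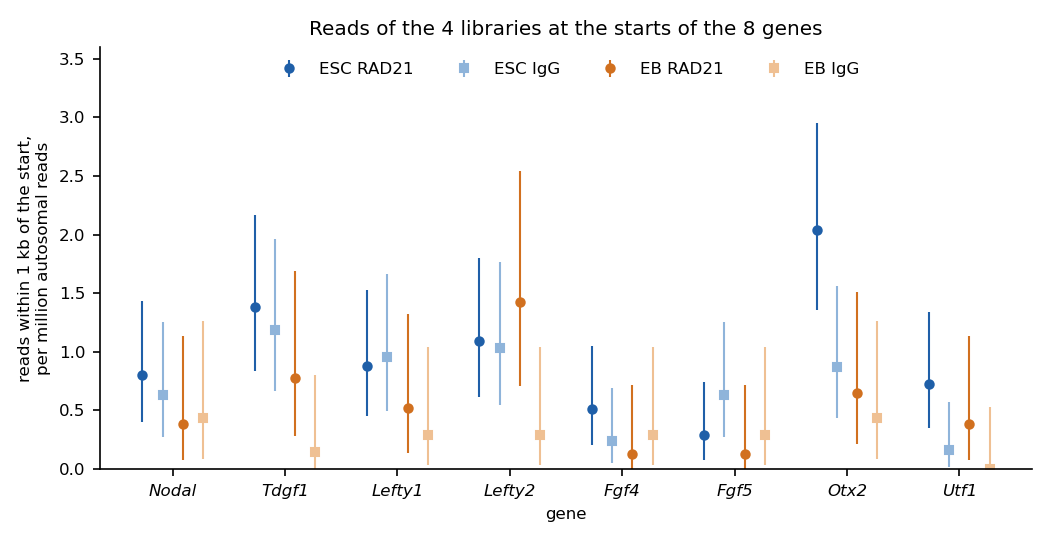
Reads within 1 kb of the start of each of the 8 genes, as RPM of autosomal reads, in the 4 libraries, with 95% counting intervals. RAD21 (circles) and IgG (squares) intervals of the same cell type overlap at each of the 8 genes, and Otx2 has the highest ESC RAD21 value, 2.04.

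Sequence at the summits was compared with a CTCF weight matrix. Within 150 bp of the summit, 12 of 30 ESC sites (interval 22.7% to 59.4%) held a match at a rate of 1e-05 of background positions, against 45.5% of all autosomal ESC sites and 0.265% of background windows. Of the EB sites 10 of 14 did (71.4%, 41.9 to 91.6), against 37.6% of all, an interval that lay above the genome-wide value. By list, a match was found at 7 of 10 sites of both lists, at 5 of the 20 listed in ESCs alone and at 3 of the 4 listed in EBs alone, against 45.0%, 46.0% and 22.2% of all such sites. At the more permissive rate of 1e-04 a match was found at 25 of 30 ESC sites (86.2% of all). It was found at 14 of 14 EB sites (76.8% to 100%), an interval that included the 80.6% of all. So most of the ESC-only sites without a match at the first rate held a weaker one. Lefty2-2, printed above, had the best match, at 26.6 bits, and it shared 16 of 20 bases with the consensus GTGGCCACCAGGGGGCGCCA. Nodal-1 shared 18 of 20. At 5 sites no match was found at either rate: Lefty2-1, Otx2-1, Fgf4-2, Fgf4-4 and Fgf4-6, all in the ESC list alone. All were called lower in EBs, though Fgf4-4 not with GC scaling. Of all ESC-only sites, with or without a match, 42.1% were lower by the rule. How many of all ESC-only sites without a match were lower was not counted, and whether a missing match goes with lower EB reads was not tested. The 5 were among the 20 ESC-only sites, where 82.3% of all ESC-only sites held a match at 1e-04.

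The summits lay to one side of the match. Read along the strand of the match, in the direction of the consensus printed above, the summit was on its 3′ side at 12 of 15 sites with a match at 1e-05 (80.0%, 51.9 to 95.7) and at 24 of 29 at 1e-04, against 79.5% and 79.3% over all sites. The median distance was 61.5 bp at the 15 sites and 46.5 bp over all. The shares over all sites lay within the intervals of the sites near the 8 genes.

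Patterns of other factors of pluripotency and of the Nodal pathway were searched on both strands within 150 bp of the summit. The Sox pattern CATTGTT was found at 4 of 34 sites, against 4.76% of all sites and 5.97% of background windows. These were Otx2-1, where it lay 14 bp from the summit, and Utf1-3, Utf1-5 and Fgf4-8. The Otx pattern TAATCC was found at 1, Fgf4-3, against 9.07% of all sites. The Oct pattern ATGCAAAT, the Foxh1 patterns AATCCACA and AATACACA, the Smad pattern GTCTAGAC and the Esrrb pattern TCAAGGTCA were found at none of the 34, with an exact interval of up to 10.3% for each. Over all autosomal sites these 4 had shares of 1.95%, 3.57%, 0.286% and 0.686%. A match here is a description of letters and not of binding.

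The same counts were made around 26 other genes of the pathway and of the primed state, a list of receptors, SMAD partners, processing enzymes, antagonists, target genes and markers. Within 100 kb of them lay 88 joined sites, 42 in ESCs alone, 32 in both lists and 14 in EBs alone. Of their ESC sites 32 of 74 (43.2%, 31.8 to 55.3) overlapped an EB site, against 48.6% of all autosomal ESC sites. By the same rule 24 of the 88 sites were lower in EBs and 10 higher, next to 18.2% and 17.4% of all sites. All 26 genes had an ESC site, and 23 had an EB site, against 82.3% and 73.6% of all protein-coding genes. The exceptions were Gdf1, which encodes a TGF-beta family partner of Nodal, and the Nodal target genes Eomes and Mixl1. Summed over the 88 sites the EB to ESC ratio was 0.963 (0.894 to 1.04), next to 0.711 (0.619 to 0.814) at the sites near the 8 genes and 1.08 over all autosomal sites. The median GC content was 46.6% at the 88 sites, and with GC scaling their ratio was 1.18 (1.10 to 1.27), next to 0.976 and 1.26. Lefty2-1 counts in both lists of genes.

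Lower sites lay near 15 of these genes: Cfc1, Mixl1, Dnmt3a, Gsc, Zic2, Tgif1, Dnmt3b, Skil, Gdf3, Furin, Fgfr1, Gdf1, Dand5, Smad3 and Eomes. How many of all protein-coding genes have a lower or a higher site within 100 kb was not counted, so these numbers of genes are a description. Tgif1, which encodes a repressor that binds SMAD proteins, had the most, 4 sites, with 17 to 22 ESC reads and 0 to 2 EB reads each. Gdf3, which encodes another ligand of the family, had 3, with 17, 23 and 29 ESC reads and 1, 4 and 7 EB reads. The first of these was nearest to Nanog and the second nearest to Dppa3, both genes of pluripotent cells. Sites that were higher in EBs lay near Pcsk6, Zic2, Acvr2a, Dnmt3b, Furin and Smad3, among others, and Dnmt3b, Zic2, Furin and Smad3 had sites of both kinds. Near Acvr2a, which encodes an activin receptor, an EB-only site in an intron of Orc4 at chr2:48764139-48765128 had 10 ESC and 23 EB reads (4.08, 1.87 to 9.59). Near Dnmt3b, a DNA methyltransferase gene, an EB-only site within 1 kb of a gene start at chr2:153494233-153494887 had 13 and 22 reads (3.00, 1.44 to 6.48). A CTCF match was found at both of these sites at the rate of 1e-04 and at neither at 1e-05. Whether the sites near these genes differed from those near Tgif1 was not tested.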

How the data were processed

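Per the labels and the study's methods, the authors sequenced 35-base reads, aligned them to mm9 (the build named in the submitters' processing notes) and deposited 1 line per aligned read, not normalized, so that each count of reads was made here from the deposited lines. The aligner is not given in the sources used here. The authors called peaks with MACS 1.4.0beta in each cell type against its IgG library. The deposited score is -10 times the log10 of the p-value, with a lowest value of 50.01, and the deposited summit height is a pile-up signal that was not scaled between libraries. The study gives more than 1 p-value limit for these calls. The read files held no duplicate positions, and 8 broken lines were skipped.

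Reads were moved by 102 bp (ESC) or 98 bp (EB), to the middle of the fragment, whose length came from strand cross-correlation, counted with Python 3.11.15 and scaled to autosomal reads. Ratios carry exact conditional (Clopper-Pearson) 95% intervals, which cover counting error only. Medians of log2 ratios used 1 added read. A count of 0 allows 3 reads. Background windows were 4596122 autosomal tiles of 500 bp at least 2000 bp from any site, in 20 classes of GC content. CTCF matrices were learned on odd- or even-numbered chromosomes and scored on the others. Genes were from GENCODE on the same build. Ratios and motif search were checked on simulated data. Groups came from the sample labels. Alternatives tried were other site distances, windows, read shifts, scalings, scores, added reads and motif rates. The genes and lists were chosen with earlier results of these data known. Smad genes other than Smad3 were not analysed here. Of the other genes, those with a called site or with no site in a list are named, except for a result that is not reported here, and all sites of the 8 genes are described.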

Additional observations from a re-analysis of the deposited data

Results flagged for a closer look

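At 4 of the ESC-only sites of the Lefty locus the scaled ratio of RAD21 to IgG reads was above 1 in ESCs and under 1 in EBs. The EB ratio was 0.895 at Lefty2-1, 0.895 at Lefty2-3, 0.895 at Lefty1-1 and 0.597 at Lefty1-4. At the first 3 the EB RAD21 and IgG counts were equal, 2 and 2, 1 and 1, and 1 and 1, so that 0.895 there is the ratio of library sizes and shows no direction. Lefty1-4 had 2 RAD21 and 3 IgG reads in EBs. The EB intervals all included 1 and ranged from 0.0498 to 5.21 at Lefty1-4 to 0.0114 to 70.3 at Lefty2-3, where the ESC interval also included 1. The difference between the cell types was not tested, since each has 1 library.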

How the results depend on the processing

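No paired analysis was possible because each group has 1 library, and for the same reason no replicate could be left out. Of 206 alternative values of the main results 169 stayed within their counting interval or within 1.5 times of a count, and 37 moved further. None was recorded as reversed. A reversal was recorded only for ratios and log2 values whose main interval excluded no difference, so that counts, shares and the other values could not be. The ratio at sites of both lists, 1.18 (0.957 to 1.45), changed side to 0.905 when scaled to shared sites. For single sites and starts 347 values stayed and 13 moved. Near the 8 genes there were 18 ESC and 6 EB sites within 50 kb, 11 and 3 within 25 kb, and 11 and 6 at a score of at least 100, and for the other list 42 and 26 within 50 kb and 33 and 20 at that score, where 72.7% of ESC sites were shared. The EB to ESC ratio was 4.91 at EB-only sites with a 150 bp window and 0.371 at ESC-only sites with 1000 bp. With GC scaling it was 0.976 over all 34 sites, 1.49 at sites of both lists and 0.388 at ESC-only sites, with 6 sites at least 2-fold higher. Scaled to shared sites it was 0.544 and 0.905 at sites of both lists, and with IgG taken off 0.201 at ESC-only sites. At a score of at least 100, 7 of 14 sites were at least 2-fold lower (21.6% of all such sites). ESC RAD21 over IgG was 10.1 with 150 bp, 5.20 (median log2 2.17) with 500 bp and 3.40 (1.71) with 1000 bp, where EB sites had 5.05 and EB reads at ESC-only sites 1.66. With 3 reads added the median log2 was 1.91 in ESCs and 1.91 in EBs. At the starts the summed EB to ESC ratio was 0.341 with 500 bp, and 7 starts were at least 2-fold lower with 2 kb (10.2% of all starts) and 2 with GC scaling (11.1%). Adding 1 read to the start counts was chosen after seeing the data. The CTCF share was 83.3% of ESC and 100% of EB sites at 1e-04, and 16.7% and 35.7% at 1e-06. ESC-only sites had at most 10 EB reads each, which limits what single sites can show.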

Other observations

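Among the CTCF matches near the 8 genes, 4 of 29 (13.8%, 3.89 to 31.7) held the core AGAAGAGGGC, at Lefty2-3, Nodal-4, Utf1-1 and Utf1-4, against 10.9% of all 15076 matches. They were 3 of 15 in ESC-only sites, 1 of 10 in sites of both lists and 0 of 4 in EB-only sites. The core was chosen after the sequences were seen. Over all autosomal sites with a match at 1e-04 it was found at 22.6% of ESC-only sites (21.6 to 23.6), 2.15% of sites of both lists and 2.65% of EB-only sites. Among the 60-base windows of the 29 matches, Lefty2-3 and Utf1-1 were identical at 76.7% of positions, and at 75.0% outside the match, where the median over 406 pairs was 27.5%. Repeat annotation was not used here.

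The end of Utf1, read within 1 kb on either side, had 20 ESC and 2 EB RAD21 reads, with 6 and 5 IgG reads, a ratio of 0.177 (0.0201 to 0.729). It was the 1 of the 8 gene ends with an interval that excluded 1. The share of all gene ends with such an interval was not counted, and no GC scaling was made for the ends. As the Utf1 body spans 1.32 kb, its end window overlapped its start window. The other ends ranged from 0.443 to 2.07, and the sum over the 8 gave 0.801 (0.566 to 1.12). No listed site lay at the end of Utf1. This window was chosen after the data were seen.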
